A study of Mus musculus with 4 samples.

Results

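The genes described here carry cholesterol through a macrophage: the enzymes that make it, the proteins that control those enzymes, the proteins that move or store it, and the nuclear receptors and transporters that remove it. The members were named by symbol and not by a rule on measured values, but with earlier results of these data known. Of the 31 listed symbols, 30 had an entry among the 22026 gene symbols. Hmgcs1 had none, so its expression is not analysed here and only its promoter sequence is counted. RNA was sequenced from mouse bone marrow derived macrophages in 4 libraries, 2 labelled WT (wildtype control, C57BL/6) and 2 labelled RBP-J KO (genotype Rbpj f/f;LysM cre, C57BL/6). Marrow came from mice 8 weeks old and was cultured for 3 days in CMG14-12 supernatant, a source of the macrophage growth factor M-CSF used at the equivalent of 20 ng/ml, in both groups. In the RBP-J KO mice, Cre recombinase is driven by the lysozyme gene of myeloid cells and removes Rbpj, which encodes the DNA-binding partner of Notch receptors in the nucleus, so that only cells which have expressed Cre lose it. The labels do not say whether the WT mice carried Cre or floxed alleles, or from how many mice each library came. The sex-linked genes given below show that the libraries of a group came from mice of different sex, so the spread behind the p-values holds that difference together with any between cultures and runs. The comparison asks which of these mRNA levels differ without RBP-J. It was made over all libraries and inside each replicate number (pair 1 and pair 2), and the synthesis enzymes were set against the genes of the liver X receptors (LXR) and of efflux.

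Cells sense the sterol content of the endoplasmic reticulum. When it is low, the SCAP protein escorts the transcription factor SREBP2 to the Golgi, where proteases release its active part, which raises transcription of nearly every enzyme from acetyl-CoA to cholesterol. When sterols are plentiful, INSIG proteins hold SCAP in the endoplasmic reticulum, and oxysterols activate LXR, which raises the efflux pumps ABCA1 and ABCG1. Macrophages depend on the second arm because they take up the cholesterol of the dead cells and lipoproteins they engulf.

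SREBP proteins act together with NF-Y, which binds the CCAAT box, so the promoters of the synthesis and control members with the largest differences in pair 2, among those with 1 start site in the table, are shown first, with that of the LXR gene Nr1h3. The sequences are those of RefSeq on GRCm38.p6, 250 bases before the annotated start, 5′ to 3′ on the gene's own strand, with capitals marking the letters CACNCCAC (the core of the sterol regulatory element), CCAAT and TGGGAA (the core bound by RBP-J) on either strand.
Lss, chr10:76531355-76531604, plus strand: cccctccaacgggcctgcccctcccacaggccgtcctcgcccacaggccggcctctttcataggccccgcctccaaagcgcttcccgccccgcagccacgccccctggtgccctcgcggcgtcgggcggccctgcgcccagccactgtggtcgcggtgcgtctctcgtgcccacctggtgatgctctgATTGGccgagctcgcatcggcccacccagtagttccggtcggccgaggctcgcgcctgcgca
Mvd, chr8:122443423-122443672, minus strand: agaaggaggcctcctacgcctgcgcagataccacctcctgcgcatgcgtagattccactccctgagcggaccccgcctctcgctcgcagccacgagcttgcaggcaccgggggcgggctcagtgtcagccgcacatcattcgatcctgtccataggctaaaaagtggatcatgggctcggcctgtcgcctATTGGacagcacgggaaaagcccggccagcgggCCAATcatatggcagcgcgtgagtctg
Insig1, chr5:28071162-28071411, plus strand: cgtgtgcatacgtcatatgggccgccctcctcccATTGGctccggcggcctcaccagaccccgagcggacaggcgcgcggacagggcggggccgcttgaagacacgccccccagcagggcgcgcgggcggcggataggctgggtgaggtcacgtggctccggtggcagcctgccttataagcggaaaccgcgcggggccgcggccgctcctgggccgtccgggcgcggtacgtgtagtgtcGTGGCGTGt
Acat2, chr17:12960726-12960975, minus strand: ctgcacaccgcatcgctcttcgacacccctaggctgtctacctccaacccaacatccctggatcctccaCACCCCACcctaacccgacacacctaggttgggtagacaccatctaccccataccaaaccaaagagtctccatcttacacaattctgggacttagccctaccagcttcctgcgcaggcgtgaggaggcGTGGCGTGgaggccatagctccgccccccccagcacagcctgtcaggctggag
Nr1h3, chr2:91195117-91195366, minus strand: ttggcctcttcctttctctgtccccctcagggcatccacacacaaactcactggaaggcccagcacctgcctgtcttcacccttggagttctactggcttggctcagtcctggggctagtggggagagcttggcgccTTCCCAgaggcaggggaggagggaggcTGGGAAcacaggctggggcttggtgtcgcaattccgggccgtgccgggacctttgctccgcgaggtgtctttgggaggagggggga
In the 25 members with an entry in the promoter table, Hmgcs1 included, CCAAT was found in 14 of 15 synthesis enzymes (93.3%), with Acat2 as the exception, and in 1 of 4 LXR and efflux genes, Mylip. Of all 27025 gene symbols in the promoter table, 37.5% held it, and of the 8432 with a promoter among the genes tested for expression, 41.1%. The members without an entry, whose promoters were not read, were Sqle, Fdps, Fdft1, Npc1, Stard4 and Abcg1. The sterol element core was found in Acat2, Insig1 and Hmgcs1, or 12.0% of the 25 members. It was in 6.05% of all symbols and in 6.51% of the tested genes with a promoter. In Insig1 the match began 9 bases before the start, and in Acat2 there was 1 match beginning at 181 and another at 53 bases before it. The RBP-J core stood in 8 of the 25 members (32%, against 24.1% of all symbols), among them Nr1h3 with 1 match on each strand. Nr1h3 has a further start in the promoter table, not printed here, whose 250 bases hold the same matches. A symbol was counted when any of its starts held the letters. The repeat bound by LXR, AGGTCA written again after 4 bases of any kind, was found in 0 of the 25 members. It was also in 0 of the 8432 tested genes with a promoter and in 4 of the 27025 symbols. An exact repeat this rare cannot tell whether the members hold sites for LXR. Read on the other strand CCAAT is ATTGG, which can share bases with TGGGAA, and a match describes letters, not binding.

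Facts of the libraries bear on every value below. Rbpj had 355 and 573 FPKM (fragments per kilobase of transcript, scaled to the size of the library) in WT but only 51.5 and 77 FPKM in RBP-J KO, so the targeted gene was lower in both pairs. The replicate numbers divide the libraries: both replicate 1 tables give genes and both replicate 2 tables give transcripts, and the Y-linked Ddx3y was above 0 in replicate 1 alone and Xist in replicate 2 alone. Both pairs are therefore shown throughout. All 8 macrophage markers listed, among them Csf1r, Emr1 and Cd68, were present in every library, with summed levels between 12556 and 19091 FPKM. In RBP-J KO, Lyz2, Cd14 and Cd68 were lower in both pairs, Lyz2 and Cd14 by at least 1.5-fold. Fcgr1 and Mertk were higher in both, and Csf1r, Emr1 and Itgam were higher in pair 1 and lower in pair 2. Lyz2 is the lysozyme gene that drives Cre in the RBP-J KO mice, so it is not a marker independent of the genotype. Any part of the Cre construct in its level was not tested. In bulk RNA, fewer cells of a type and less RNA per cell cannot be told apart. The sequencing depth is unknown. Values were tested as log2(FPKM + 1) with limma over the 11851 genes whose mean reached 1 FPKM, and 0 genes (0.0%) passed an adjusted p of 0.05. At an unadjusted p under 0.05 limma gave 524 genes, 2.24% of those tested being lower and 2.19% higher in RBP-J KO. All 30 members were among the genes tested. With group as the only term in limma, their smallest adjusted p was 0.999, and only Hsd17b7 was under an unadjusted 0.05. With the replicate number added as a block in limma, their smallest adjusted p was 0.126, for Sqle, and again 0 genes passed. The differences below are therefore descriptions of 4 libraries.

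The synthesis enzymes were most abundant in WT replicate 2, and the other 3 libraries lay closer to each other. In 14 of the 17 measured enzymes, WT replicate 2 was the highest library by at least 1.5-fold over the next, against 3.68% of all genes tested; over all 30 members the number was 18. RBP-J KO lay below WT by a median of -0.19 on the log2 scale in pair 1 (1.14-fold) and of -1.58 in pair 2 (2.98-fold), where all genes tested had medians of -0.05 and -0.02. In pair 2, 14 of the 17 were lower by at least 1.5-fold, where 8.18% of all genes were. In pair 1 it was 2 of the 17, where 12.1% of all genes were. The same 2, Sqle and Hsd17b7, were lower by that margin in both pairs, against 3.63% of all genes.

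**Figure D1:**
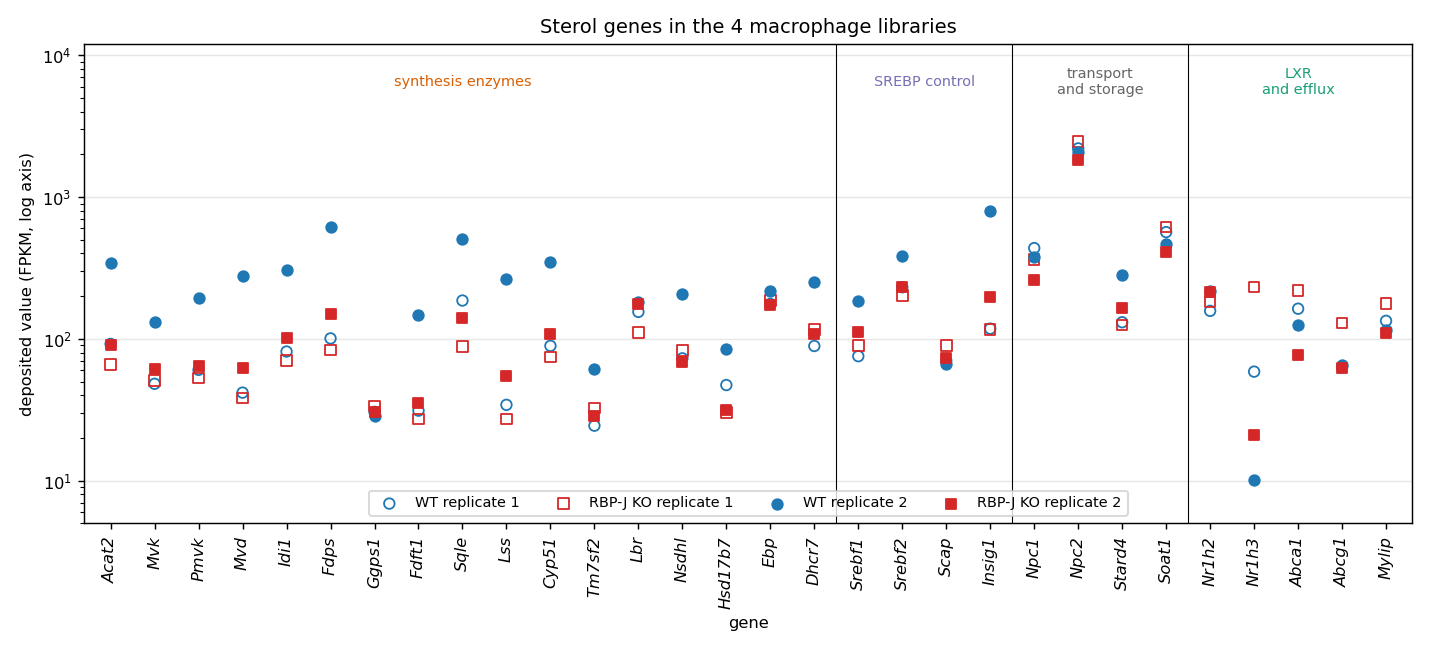
Deposited values (FPKM, log axis) of the 30 measured members in each library, 1 column per gene, grouped by role; open symbols are replicate 1 and filled symbols replicate 2, circles WT and squares RBP-J KO. The filled circle of WT replicate 2 stands above the other 3 libraries by at least 1.5-fold in 14 of the 17 synthesis enzymes, and also in the control gene Insig1, with 797 FPKM against 198 FPKM in the next library.

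The first enzymes build isoprenoid units from acetyl-CoA through mevalonate. Acat2, the cytosolic thiolase that joins the first acetyl groups, was at 92.1 and 342 FPKM in the WT libraries against 65.9 and 91.2 FPKM in RBP-J KO (replicates 1 and 2 in this order here and below). Both WT libraries were above both RBP-J KO libraries, but WT replicate 1 by less than 1 FPKM over RBP-J KO replicate 2. Mvk, the kinase that phosphorylates mevalonate, had 48.2 and 133 FPKM in WT, compared with 50.8 and 61.0 FPKM in RBP-J KO. Only WT replicate 2 was high, and WT replicate 1 was the lowest of the libraries. Pmvk, which adds the second phosphate, was at 60.4 and 193 FPKM in the WT libraries against 53.2 and 64.4 FPKM in RBP-J KO. Mvd, the decarboxylase that yields isopentenyl diphosphate, had 41.8 and 275 FPKM in WT, compared with 38.2 and 62.7 FPKM in RBP-J KO. In both genes the WT and RBP-J KO ranges overlapped, with a difference of 1.13-fold (Pmvk) and 1.09-fold (Mvd) in pair 1 and of 2.96-fold and 4.34-fold in pair 2.

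The isomerase and the chain builders followed the same order of libraries. Idi1, which interconverts the C5 isoprenoid units, was at 81.4 and 305 FPKM in the WT libraries against 70.1 and 101 FPKM in RBP-J KO. Fdps, which makes farnesyl diphosphate, the last intermediate shared with protein prenylation, had 101 and 619 FPKM in WT, compared with 83.7 and 149 FPKM in RBP-J KO. In both, WT replicate 2 stood alone at the top and RBP-J KO replicate 2 came next. Ggps1 was the exception of this arm. It makes geranylgeranyl diphosphate, which leaves the sterol route for protein prenylation, and was at 30.6 and 28.5 FPKM in the WT libraries against 33.5 and 30.7 FPKM in RBP-J KO. Its groups did not overlap, with RBP-J KO higher by 1.09-fold and 1.08-fold in the pairs; 11.7% of all genes had both RBP-J KO libraries above both WT libraries. Over the 7 measured enzymes of this arm the median difference was -0.18 in pair 1 and -1.58 in pair 2.

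The committed sterol steps begin with squalene. Fdft1, squalene synthase, had 31.2 and 148 FPKM in WT, compared with 27.2 and 35.1 FPKM in RBP-J KO. Its annotated 3′ end shares exon sequence with Ctsb on the opposite strand, and Ctsb, the abundant lysosomal protease cathepsin B, was between 14450 and 22207 FPKM, so that without known strand counting the Fdft1 value is uncertain. Sqle, the oxygen-dependent squalene epoxidase that limits flux late in the pathway, was at 186 and 507 FPKM in the WT libraries against 88.4 and 139 FPKM in RBP-J KO. Both WT libraries exceeded both RBP-J KO libraries, by 2.09-fold in pair 1 and 3.62-fold in pair 2 (347 ± 227 and 114 ± 36.0 FPKM, SD, n = 2). The limma log2 difference was -1.46 (SE 0.55, adjusted p = 0.999), and it was -2.18 without WT replicate 1 and -0.74 without WT replicate 2. Lss, the cyclase that forms lanosterol, had the largest pair 2 difference of all members, with 34.3 and 265 FPKM in WT against 27.1 and 54.8 FPKM in RBP-J KO. Its pair 2 difference of 4.77-fold stood beside one of 1.25-fold in pair 1, and its WT libraries differed from each other by 7.54-fold.

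Lanosterol is then demethylated, reduced and isomerised. Cyp51, the lanosterol demethylase, had 89.3 and 348 FPKM in WT, compared with 74.5 and 108 FPKM in RBP-J KO. Nsdhl, a dehydrogenase of C4 demethylation, was at 72.9 and 208 FPKM in the WT libraries against 82.8 and 69.2 FPKM in RBP-J KO, so that the sign turned between the pairs. Hsd17b7, the ketoreductase of the same step, had 47.2 and 84.7 FPKM in WT, compared with 30.2 and 31.3 FPKM in RBP-J KO. It was the only member besides Sqle that was at least 1.5-fold lower in both pairs, at 1.54-fold and 2.65-fold, and the RBP-J KO libraries differed from each other by only 1.03-fold (66.0 ± 26.5 and 30.8 ± 0.74 FPKM, SD, n = 2; limma log2 difference -1.02, SE 0.34, unadjusted p = 0.033, adjusted p = 0.999). Without WT replicate 2 that difference was -0.60. The groups did not overlap in 3 of the 17 enzymes with WT on top, Acat2, Sqle and Hsd17b7, where 18.2% of all genes had that order.

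The late reductases differed among themselves. Tm7sf2 and Lbr both carry sterol C14 reductase activity. Tm7sf2 was at 24.4 and 61.5 FPKM in the WT libraries against 32.4 and 28.4 FPKM in RBP-J KO, with opposite signs in the pairs. Lbr, which is also the lamin B receptor of the nuclear envelope, had 155 and 181 FPKM in WT, compared with 111 and 175 FPKM in RBP-J KO, and WT replicate 2 exceeded the next library by only 1.03-fold. Ebp, the sterol isomerase, was at 176 and 217 FPKM in the WT libraries against 186 and 172 FPKM in RBP-J KO, the smallest ratio of highest to lowest library among the sterol steps. Dhcr7, which performs the last reduction to cholesterol, had 89.1 and 250.1 FPKM in WT, compared with 117 and 108 FPKM in RBP-J KO. The enzymes in which WT replicate 2 did not stand apart by 1.5-fold were thus Ggps1, Lbr and Ebp. Without Ggps1 and Lbr, which have roles outside cholesterol synthesis, the median over the remaining 15 enzymes was -0.19 in pair 1 and -1.58 in pair 2.

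The genes that control the pathway followed it in part. Insig1, itself a target of SREBP and the retention factor of SCAP, was at 118 and 797 FPKM in the WT libraries against 116 and 198 FPKM in RBP-J KO. The pair 1 libraries were equal within 1.02-fold, whereas those of pair 2 differed by 4.01-fold. Srebf2, which encodes SREBP2, had 231 and 384 FPKM in WT, compared with 203 and 232 FPKM in RBP-J KO, and 3 of the libraries lay between 203 and 232 FPKM. Srebf1, which encodes SREBP1 and is a target of LXR as well as of SREBP, was at 75.5 and 185 FPKM in the WT libraries against 89.5 and 112 FPKM in RBP-J KO, with opposite signs in the pairs. Scap had 70.2 and 66.3 FPKM in WT, compared with 89.5 and 73.7 FPKM in RBP-J KO; its groups did not overlap, with RBP-J KO higher by 1.27-fold and 1.11-fold. WT replicate 2 was the highest library by at least 1.5-fold in 3 of these 4 genes, all but Scap.

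Genes of cholesterol transport and storage varied less between libraries. Npc1 and Npc2 hand cholesterol from endocytosed lipoprotein out of the lysosome. Npc1, a membrane protein, was at 436 and 377 FPKM in the WT libraries against 364 and 262 FPKM in RBP-J KO, without overlap of the groups and with differences of 1.20-fold and 1.44-fold. Npc2, its soluble partner, was the most abundant member, with 2202 and 2062 FPKM in WT against 2467 and 1826 FPKM in RBP-J KO, and its sign differed between the pairs. Stard4, a cytosolic sterol carrier regulated by SREBP2, had 131 and 279.9 FPKM in WT, compared with 126 and 164 FPKM in RBP-J KO. It was the only 1 of these 4 genes in which WT replicate 2 was highest. Soat1, which esterifies cholesterol for storage in lipid droplets, was at 566 and 467 FPKM in the WT libraries against 614 and 409.8 FPKM in RBP-J KO, and the replicate number separated its libraries more than the genotype did.

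The LXR and efflux genes had another order of libraries, with the highest value in RBP-J KO replicate 1 for 4 of 5. The share of all genes with that library highest was not counted, so this describes these genes only. Nr1h3, which encodes LXR alpha, the inducible LXR of macrophages, had 58.7 and 10.1 FPKM in WT, compared with 233 and 21.1 FPKM in RBP-J KO. RBP-J KO exceeded WT by 3.91-fold in pair 1 and by 2.0-fold in pair 2, and Nr1h3 was the only member at least 1.5-fold higher in both pairs, against 3.86% of all genes. The replicate numbers were farther apart than the genotypes: replicate 2 was 5.41-fold lower than replicate 1 in WT and 10.6-fold lower in RBP-J KO, so that WT replicate 1 lay above RBP-J KO replicate 2 and the groups overlapped (limma log2 difference 1.49, SE 1.40, adjusted p = 0.999). In the replicate 2 tables, 2 transcripts of Nr1h3 are listed, and the more abundant one was at 8.15 FPKM in WT against 18.6 FPKM in RBP-J KO, the other at 1.90 and 2.57 FPKM. Nr1h2, the ubiquitous LXR beta, was at 158 and 218 FPKM in the WT libraries against 182 and 212 FPKM in RBP-J KO, within 1.16-fold in pair 1 and 1.02-fold in pair 2.

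The efflux pumps and Mylip, which are targets of LXR, were higher in RBP-J KO in pair 1 and lower in pair 2, by 1.05-fold for Abcg1 and for Mylip. Abcg1, which exports cholesterol to mature high-density lipoprotein, had 63.0 and 65.2 FPKM in WT, compared with 129 and 62.1 FPKM in RBP-J KO. Only RBP-J KO replicate 1 stood apart, by 1.98-fold over the next library. Abca1, which loads cholesterol onto lipid-poor apolipoprotein A-I, was at 163 and 125 FPKM in the WT libraries against 219 and 76.9 FPKM in RBP-J KO, 1.34-fold higher in pair 1 and 1.62-fold lower in pair 2. Mylip, the ubiquitin ligase IDOL, which limits lipoprotein uptake, had 134 and 116 FPKM in WT, compared with 177 and 111 FPKM in RBP-J KO. Its more abundant transcript in replicate 2 was at 90.8 FPKM in WT against 93.6 FPKM in RBP-J KO, so that the pair 2 sign of Mylip turned when that transcript was used in place of the sum. In pair 1, 2 of the 5 LXR and efflux genes were at least 1.5-fold higher in RBP-J KO (Nr1h3 and Abcg1), where 10.3% of all genes were, and in pair 2 it was 1 (Nr1h3), where 6.48% were.

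**Figure D2:**
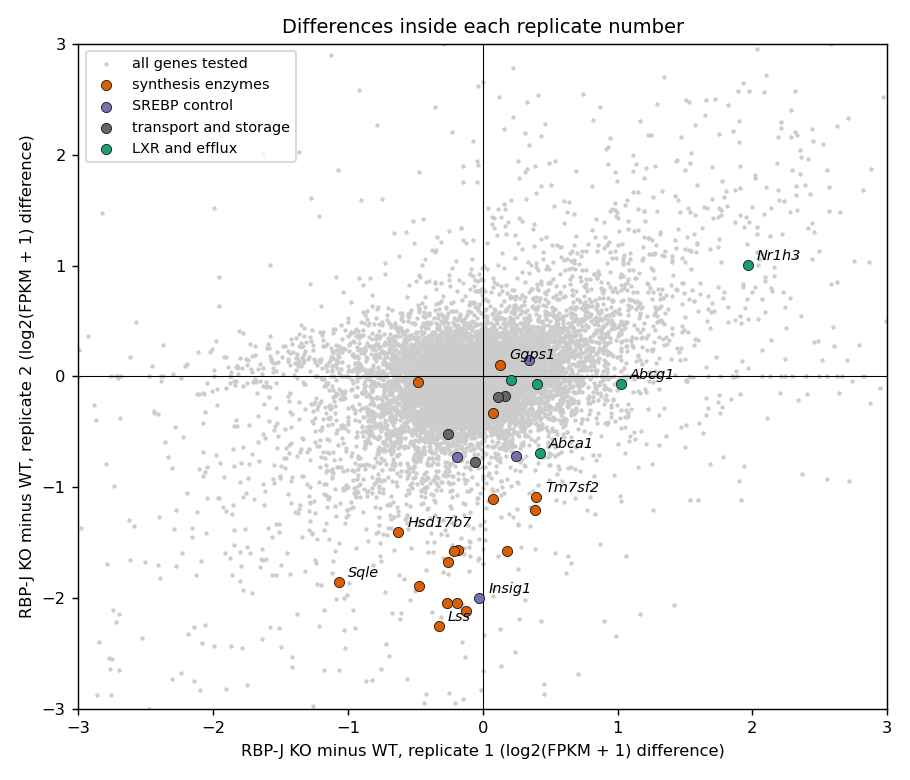
Difference between RBP-J KO and WT (log2(FPKM + 1)) in replicate 1 on the horizontal and replicate 2 on the vertical axis, with 1 point per gene; grey points are all genes tested and coloured points the members by role, and genes beyond the axes are not drawn. Most synthesis enzymes lie near 0 on the horizontal axis and far below 0 on the vertical axis (medians -0.19 and -1.58), while Nr1h3 stands alone among the members at the upper right, away from the origin.

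Set against each other, the synthesis enzymes had the lower median difference in both pairs. The median of the 5 LXR and efflux genes was 0.42 in pair 1 and -0.07 in pair 2, so that the synthesis median lay below it by -0.61 on the log2 scale in pair 1 (1.53-fold) and by -1.51 in pair 2 (2.84-fold). Over all libraries the medians were -0.90 and 0.17, a gap of -1.06 (2.09-fold). In pair 1, 11 of 17 synthesis enzymes were lower, a share near the 55.6% of all genes, and 5 of 5 LXR and efflux genes were higher, where 44.1% of all genes were. In pair 2, 16 of 17 synthesis enzymes and 4 of 5 LXR and efflux genes were lower, where 52.6% of all genes were. Of those 4 LXR and efflux genes, only Abca1 was lower by at least 1.5-fold. Under quantile or upper-quartile scaling the counts were 15 of 17 and 3 of 5. No test was made of this gap, since the members were grouped with earlier results known. Leaving out WT replicate 2 brought the gap to -0.22 and turned the synthesis median to 0.05. Leaving out WT replicate 1 widened the gap to -1.97, and leaving out RBP-J KO replicate 1 turned the LXR and efflux median to -0.17. Each omission sets a single library against both of the other group, so the difference between replicate numbers enters these values. In pair 1, which also holds no WT replicate 2, the synthesis median was -0.19 and the gap -0.61.

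Counted by sign alone, 15 of the 30 members were lower in both pairs and 3 were higher in both (Ggps1, Scap and Nr1h3), where 34.1% and 25.1% of all genes were. Among the synthesis enzymes, 11 of 17 were lower in both pairs and 5 had opposite signs (Mvk, Tm7sf2, Nsdhl, Ebp and Dhcr7). Opposite signs were found in 4669 of all 11851 genes tested. Under quantile or upper-quartile scaling 13 members were lower in both pairs and 4 higher.

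The WT libraries differed from each other in the synthesis enzymes by more than the group means did. WT replicate 2 exceeded WT replicate 1 by a median of 1.5 on the log2 scale over the synthesis enzymes (2.83-fold), against a median of -0.12 over all genes, and 14 of the 17 differed by at least 1.5-fold in that direction, where 10.3% of all genes did. Between the RBP-J KO libraries the same median was 0.36 (1.28-fold), with 5 of 17 enzymes past 1.5-fold, where 10.1% of all genes were. WT replicate 1, taken alone, lay above both RBP-J KO libraries in 3 of the 17 enzymes, between them in 10 and below both in 4, whereas WT replicate 2 lay above both in 16. Over all genes tested, WT replicate 1 was above both RBP-J KO libraries in 42.7% and WT replicate 2 in 33.9%. For the LXR and efflux genes the larger distance was inside RBP-J KO, where replicate 2 was lower by a median of -1.04, against -0.20 inside WT. Which of the WT libraries stands for the genotype cannot be told from 2 libraries.

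**Figure D3:**
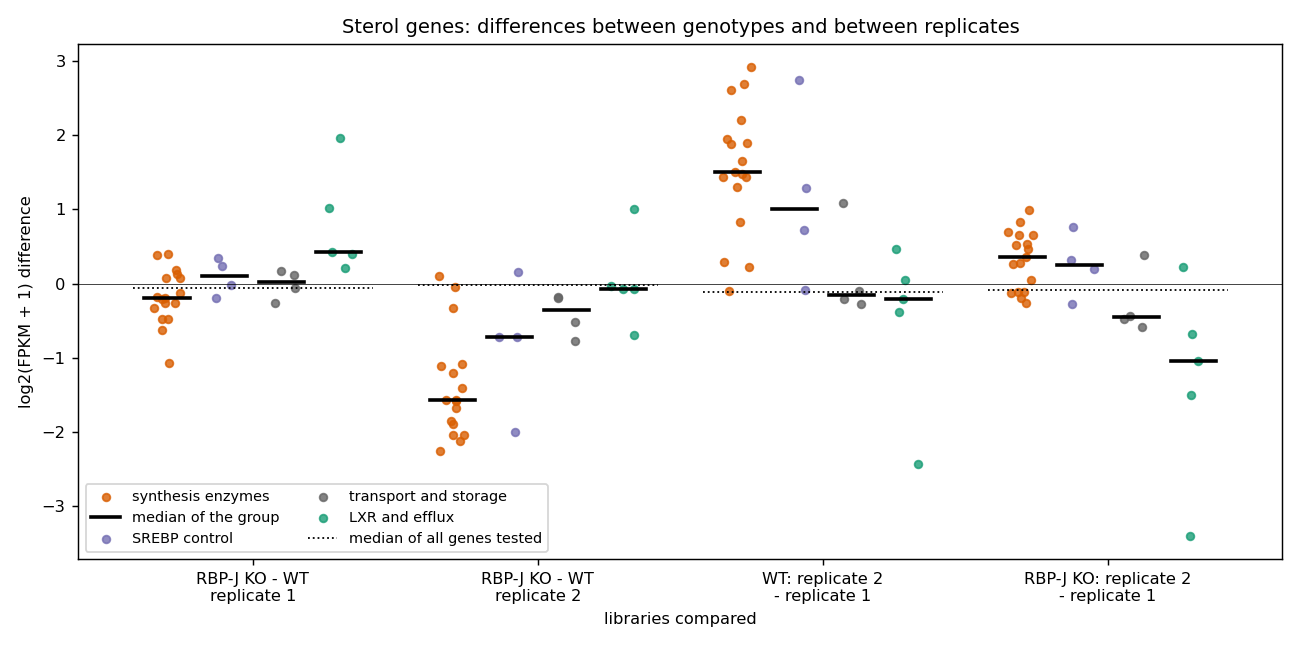
Differences in log2(FPKM + 1) between libraries, with 1 point per member in the colour of its role, black bars for the median of each role and dotted lines for the median of all genes tested; the 4 blocks are RBP-J KO minus WT in each replicate number and replicate 2 minus replicate 1 inside each genotype. The synthesis enzymes reach a median of 1.5 between the WT libraries, nearly the size of the -1.58 between the genotypes in replicate 2, and the LXR and efflux genes lie lowest between the RBP-J KO libraries.

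Other sterol genes were listed by their place in the pathway, except Fabp5, which is not a sterol gene but is counted with them. The list was made with earlier results of these data known. In pair 2, 14 of 16 were lower in RBP-J KO, where 52.6% of all genes were. Of 17 listed, these 16 were tested. In both pairs 8 were lower and 2 higher, against 34.1% and 25.1% of all genes, and 7 had WT replicate 2 highest by at least 1.5-fold, against 3.68%; 0 passed the limma test after adjustment. Lrp8, a lipoprotein receptor, had 37.6 and 57.0 FPKM in WT, compared with 18 and 22.2 FPKM in RBP-J KO. Tmem97, a sterol-responsive membrane protein that binds NPC1, was measured with 182 and 195 FPKM in WT against 89.8 and 122 FPKM in RBP-J KO. These differences were of like size in both pairs, 2.03-fold and 2.50-fold for Lrp8 and 2.02-fold and 1.59-fold for Tmem97. Both genes, and Fabp5, were named for the smallest unadjusted p of this list in limma. That choice favours genes whose replicates are alike, so the likeness of the pairs is no separate result. In the whole list, 6 of 16 had opposite signs in the pairs, a share near that of all genes tested (4669 of 11851). Fabp5, a fatty acid carrier, was at 1010 and 2184 FPKM in the WT libraries against 657 and 632 FPKM in RBP-J KO.

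Fatty acid synthesis genes, which answer to SREBP1 and partly to LXR, were mostly lower in RBP-J KO in both pairs. Of 13 listed, 11 passed the filter of 1 FPKM, and 9 of these were lower and 0 higher in both pairs, where 34.1% and 25.1% of all genes were. By at least 1.5-fold in both pairs 5 were lower, against 3.63% of all genes, and 3 with a pseudocount of 10; 0 passed the limma test after adjustment. The medians were -0.46 in pair 1 and -1.0 in pair 2. Me1, the malic enzyme that supplies NADPH, was at 63.2 and 50.1 FPKM in the WT libraries against 33.1 and 25.0 FPKM in RBP-J KO, a difference of 1.88-fold and 1.96-fold in the pairs without a high WT replicate 2. Mid1ip1, an activator of acetyl-CoA carboxylase, had 278 and 568 FPKM in WT, compared with 135 and 283 FPKM in RBP-J KO, lower by about the same factor in both pairs (2.05-fold and 2.01-fold). Acaca, that carboxylase, was 1.27-fold and 1.67-fold lower, and the desaturase Fads1 1.11-fold and 1.84-fold lower. Me1, Mid1ip1, Acaca and Fads1 were named for the smallest unadjusted p of this list in limma, which favours genes whose replicates are alike. In pair 2 the widest difference of these 11 was in Scd1, the stearoyl-CoA desaturase, named here with its values already known, with 3.08 and 111 FPKM in WT against 1.56 and 1.97 FPKM in RBP-J KO, so that WT replicate 2 alone was high.

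Further genes of LXR signalling went both ways. Of 12 listed, 10 passed the filter and Abcg4 and Apoc1 were listed at 0 in all libraries, with 5 higher and 2 lower in both pairs, where 25.1% and 34.1% of all genes were; 0 passed the limma test after adjustment. Apoe, the apolipoprotein that accepts exported cholesterol, was at 7163 and 10895 FPKM in the WT libraries against 15134 and 17045 FPKM in RBP-J KO, without overlap of the groups and by 2.11-fold and 1.56-fold. Rxra, the obligate partner of LXR, had 205 and 154 FPKM in WT, compared with 330.1 and 235 FPKM in RBP-J KO. Cyp27a1, which makes the LXR ligand 27-hydroxycholesterol, was at 25.9 and 58.6 FPKM in the WT libraries against 84.0 and 83.4 FPKM in RBP-J KO. Pltp, the phospholipid transfer protein and a target of LXR, went the other way, with 495 and 1080 FPKM in WT against 299.97 and 202 FPKM in RBP-J KO, lower by 1.65-fold and 5.33-fold. Apoe, Rxra, Cyp27a1 and Pltp were likewise named for the smallest unadjusted p of their list in limma.

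**Figure D4:**
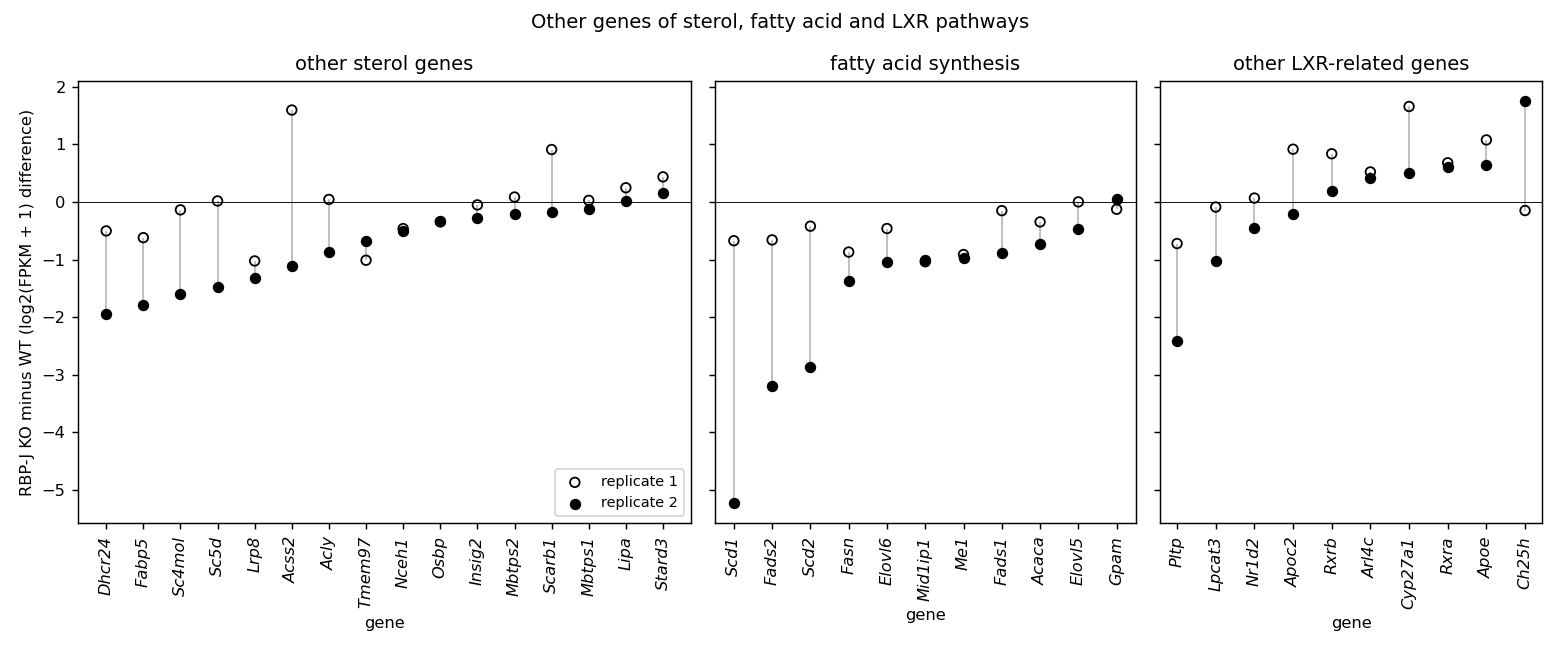
Difference between RBP-J KO and WT (log2(FPKM + 1)) for the tested genes of 3 lists, each gene with an open circle for replicate 1 and a filled circle for replicate 2 joined by a line, ordered within a list by the replicate 2 value. Fatty acid synthesis genes lie mostly below 0 in both replicates (medians -0.46 and -1.0), whereas sterol genes such as Sc4mol and Sc5d are near 0 in replicate 1 and low in replicate 2.

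Markers of other cells and of cycling also differed between these libraries. The 11 of 12 neutrophil markers with an entry summed to 7370 FPKM (WT) and 8761 FPKM (RBP-J KO) in replicate 1 and to 369 and 1219 FPKM in replicate 2, so that WT replicate 2, the library with the highest synthesis enzymes, had the lowest neutrophil sum. All 11 were higher in RBP-J KO in pair 2, by a median of 1.94 on the log2 scale, where 5480 of all 11851 genes tested were higher. In pair 1, 8 were higher and 3 lower, with a median of 0.26. The 10 cycling genes summed to 4021 and 2730 FPKM in WT against 2103 and 2934 FPKM in RBP-J KO, lowest in RBP-J KO replicate 1, where Nr1h3, Abcg1 and Abca1 were highest. Dendritic cell markers summed to 74.1 FPKM there and to at most 6.36 FPKM in the other libraries, with Ccr7 at 32 FPKM against at most 0.81 FPKM. In RBP-J KO replicate 1 the B, T and NK, and mast and erythroid marker sums also peaked, at 37.2, 2.95 and 16.4 FPKM. The B cell sum was 18.5 and 6.93 FPKM in WT against 37.2 and 25.95 FPKM in RBP-J KO. The T cell genes Cd3e and Cd3g had 1.37 and 1.33 FPKM in RBP-J KO replicate 1 and 0 in the other libraries. The NK cell gene Klrb1c had 0.44 FPKM in WT replicate 1 against 0.25 FPKM in RBP-J KO replicate 1. Cd3d and the NK cell gene Ncr1 were listed at 0 in all. The part of any of these cells in the sterol differences was not tested.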

How the data were processed

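The 4 tables, 1 per library, were read as deposited. The submitters' processing notes name TopHat, an aligner, Cufflinks, a quantifier, and the mouse build mm9, without saying how each was used; for versions, annotation and strand settings the sources used here give nothing. The values the authors deposited were read as FPKM, the unit Cufflinks writes, since the headers name none; without counts the depth is unknown, so no counting interval is given. Transcript values of the replicate 2 tables were summed per symbol, and 25 symbols turned into dates were restored by their descriptions.

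Values were tested as log2(FPKM + 1) for the 11851 genes whose mean reached 1 FPKM, a scale that understates changes of low genes. limma 3.58.1 in R 4.3.3 was fitted with group as its only term and a variance trend, two-sided, with Benjamini-Hochberg adjustment over all genes. The code of the fit was run on simulated data. The simulated libraries were independent, without the replicate effect of these libraries, so the simulation does not show how the fit performs here. Fold differences are on this scale. Libraries with equal numbers were also compared directly, with a margin of 1.5-fold. Figures used matplotlib 3.10.9.

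The members, their roles, the lists of other pathway genes and markers, and the tests were chosen with earlier results of these data known. All measured members are named; from each further list, up to 4 genes with the smallest unadjusted p. Some sterol genes are not reported here and are left out of the lists. Other pseudocounts, filters, scalings, transcript handling, a replicate block, omission of each library and other role lists were tried. Promoter letters were read from the RefSeq table of GRCm38.p6, of which 25 members matched, and no position on mm9 was used.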

Additional observations from a re-analysis of the deposited data

How the results depend on the processing

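Over the alternatives that kept all libraries, the synthesis median lay between -0.96 and -0.84, the LXR and efflux median between 0.09 and 0.23 and the gap between -1.13 and -0.98. The count of synthesis enzymes at least 1.5-fold lower in both pairs went from 2 to 1 with a pseudocount of 10 and with median-of-ratios scaling. Without a filter on low values limma passed 8 genes, none of them a member, where 22026 genes were tested, low ones included. The directions of Npc2 and Soat1 turned under quantile normalization (0.0954 and 0.0246), upper-quartile scaling (0.0479 and 0.0176) and median-of-ratios scaling (0.0395 and 0.0092).

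Leaving out 1 library at a time gave synthesis medians from -1.70 to 0.05, LXR and efflux medians from -0.17 to 0.61 and gaps from -1.97 to -0.22. Directions turned in 21 of the 30 members. Without WT replicate 2 they turned for Mvk (range over the omissions -1.24 to 0.20), Mvd (-2.47 to 0.22), Idi1 (-1.84 to 0.05), Fdps (-2.46 to 0.15), Lss (-2.75 to 0.17), Cyp51 (-1.94 to 0.0103), Tm7sf2 (-0.99 to 0.30), Nsdhl (-1.45 to 0.055), Ebp (-0.28 to 0.021), Dhcr7 (-1.15 to 0.33), Srebf1 (-0.88 to 0.40), Insig1 (-2.39 to 0.36) and Stard4 (-0.96 to 0.13). Without RBP-J KO replicate 1 they turned for Lbr (-0.59 to 0.0651), Nr1h3 (-0.21 to 3.19), Abcg1 (-0.0442 to 1.0) and Mylip (-0.17 to 0.50). On omission of WT replicate 1 and also of RBP-J KO replicate 2 they turned for Npc2 (-0.22 to 0.21), Soat1 (-0.33 to 0.25), Nr1h2 (-0.14 to 0.32) and Abca1 (-0.88 to 0.61). In the other 9 members the direction held while sizes moved, for Acat2 from -2.13 to -0.24, Pmvk from -1.70 to -0.0459, Fdft1 from -2.22 to -0.0123, Sqle from -2.18 to -0.74, Hsd17b7 from -1.43 to -0.60, Srebf2 from -0.82 to -0.0929, Npc1 from -0.63 to -0.16, Ggps1 from 0.0567 to 0.18 and Scap from 0.11 to 0.39. With 1 library left in a group, limma assumes that it varies like the other group. That library is then set against both replicate numbers of the other group, so the difference between replicate numbers enters the directions and sizes. Of the members that turned, Nr1h3 was higher in RBP-J KO in both pairs (1.97 and 1.0). Lbr, Mvd, Idi1, Fdps, Lss, Cyp51, Insig1 and Stard4 were lower in both. The other members that turned had opposite signs in the pairs. In an alternative chosen after seeing the data, WT replicate 1 alone lay above both RBP-J KO libraries in 3 synthesis enzymes and 4 members, the same numbers as both WT libraries together.

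The replicate numbers are not stated to pair the mice. The deviations of libraries with one number were correlated across genes (r = 0.64), and a replicate block in limma passed 0 genes (smallest adjusted p 0.064; 1557 genes at an unadjusted p under 0.05, against 524 without the block). Medians are unaltered by the block, with a synthesis median of -0.90, and the smallest adjusted p values of members were 0.126 for Sqle and 0.165 for Nr1h3. The unknown depth sets no floor for low genes, of which the members hold only Nr1h3, at 10.1 FPKM in WT replicate 2.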
